A study of Mus musculus with 4 samples.

Results

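The kinase complex mTORC1 drives protein synthesis and cell growth, and a set of inhibitory proteins restrains it. The 10 genes described here are Ddit4l, Ddit4, Sesn1, Sesn2, Tsc1, Tsc2, Deptor, Akt1s1 and Eif4ebp1, which encode such inhibitors or a translation repressor controlled by the complex, and Mtor, which encodes the kinase itself. They were chosen by the gene symbol of the probe in the platform annotation or by an older synonym, Frap1 for Mtor and Depdc6 for Deptor. All 10 had 1 probe each with a value on every array, among 16390 named genes of which 13765 had such a probe. The set was proposed because Ddit4l was already known to be far higher in one group of these arrays, so the values of the 10 genes are given as a description, with no test.

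The cells were NSCL61, a mouse glioma-initiating line derived from neural stem cells that lack p53 and overexpress oncogenic HRas, a background that both groups share. The labels give the source as newborn (P0) brain of C57BL6 mice. The Eva1 shRNA group was 2 arrays of NSCL61 cells carrying a short hairpin RNA against Eva1, now named Mpzl2, which encodes an immunoglobulin-family adhesion protein. The control group was 2 arrays labelled as NSCL61 alone, which the series title describes as expressing a control hairpin. Transfected cells were selected with hygromycin. One label gives 1 week of selection for both groups, and another gives 2 weeks for the Eva1 shRNA samples only. A difference in selection between the groups therefore cannot be told apart from the hairpin. The labels do not say how many hairpins or clones were used, or whether the 2 samples of a group were grown as separate cultures, so the spread between arrays of a group may be technical. Each sample was read in 1 colour on a mouse 3D-Gene chip, and intensities are given in the authors' units, in which the median probe of each array stands near 25.

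The inhibitors act at different steps. Growth factor signals through PI3K and AKT reach the small GTPase Rheb, which switches mTORC1 on. Amino acids sensed at the lysosome reach mTORC1 by a separate branch. The TSC complex, built from the products of Tsc1 and Tsc2, turns Rheb off, and the stress proteins encoded by Ddit4 (REDD1) and Ddit4l (REDD2) restrain mTORC1 through it. The sestrins, encoded by Sesn1 and Sesn2, block the amino acid branch by binding the GATOR2 complex. DEPTOR and PRAS40, the product of Akt1s1, bind within the mTOR complexes, and 4E-BP1, the product of Eif4ebp1, holds the cap-binding factor eIF4E until mTORC1 phosphorylates it. The arrays measured messenger RNA and not the activity of mTORC1. In such bulk RNA, fewer cells of a type and less RNA per cell cannot be told apart.

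The promoters of Ddit4l, Ddit4 and Akt1s1 are shown because Ddit4l and Akt1s1 were the genes with the largest differences and Ddit4 is the close relative of Ddit4l that did not share its pattern. Each runs from 250 bases before to 50 bases after the start annotated by RefSeq on GRCm38.p6, read 5′ to 3′ on the gene's strand. The Ddit4l window is chr3:137623422-137623721 (plus strand), the Ddit4 window chr10:59951721-59952020 (minus strand) and the Akt1s1 window chr7:44850122-44850421 (plus strand). Capitals mark matches, on either strand, to the hypoxia-inducible factor core written with A first (ACGTG), to the same core written with G first (GCGTG), to the GC box bound by Sp1 family factors (GGGCGG) and to the TATA box of core promoters (TATAAA).
Ddit4l: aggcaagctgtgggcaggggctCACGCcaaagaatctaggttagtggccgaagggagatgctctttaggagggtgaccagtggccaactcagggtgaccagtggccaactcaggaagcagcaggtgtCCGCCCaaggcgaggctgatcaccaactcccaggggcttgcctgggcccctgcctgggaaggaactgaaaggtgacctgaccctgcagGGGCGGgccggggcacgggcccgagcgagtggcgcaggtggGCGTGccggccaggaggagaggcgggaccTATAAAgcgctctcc
Ddit4: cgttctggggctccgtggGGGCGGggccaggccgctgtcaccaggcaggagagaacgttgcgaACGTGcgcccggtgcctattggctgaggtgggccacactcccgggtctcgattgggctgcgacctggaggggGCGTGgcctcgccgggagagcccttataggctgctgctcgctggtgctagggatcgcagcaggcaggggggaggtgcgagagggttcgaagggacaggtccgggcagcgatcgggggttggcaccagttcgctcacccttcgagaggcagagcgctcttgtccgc
Akt1s1: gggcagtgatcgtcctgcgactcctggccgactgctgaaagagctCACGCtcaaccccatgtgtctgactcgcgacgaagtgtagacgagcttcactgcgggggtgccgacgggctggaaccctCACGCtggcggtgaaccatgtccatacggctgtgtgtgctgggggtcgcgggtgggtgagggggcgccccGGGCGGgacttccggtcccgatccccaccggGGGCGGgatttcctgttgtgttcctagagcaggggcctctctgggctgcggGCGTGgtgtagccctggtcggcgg
The Ddit4l window held 2 matches to the core GCGTG, 2 to the GC box and 1 to the TATA box. The last lay on the plus strand 35 bases after the annotated start, not before it. Whether it works as a TATA box was not tested. The Ddit4 window held 1 match to the core ACGTG, 1 to the other hypoxia core and 1 to the GC box, and the Akt1s1 window held 3 to the hypoxia core with G first and 2 to the GC box. No matches overlapped in these windows. Of 32851 RefSeq promoter windows of the same length, 19.6% held the hypoxia core with A first, 32.4% the core with G first, 35.7% the GC box and 13.6% the TATA box. The AP-1 motif (TGANTCA), the motif of forkhead factors of the FOXO family (GTAAACA) and the composite motif of C/EBP and ATF factors (TGATGNAA) were also searched on both strands, with no match in the 3 windows and shares of 7.81%, 3.65% and 3.97% over all windows. The windows contained 14 CpG dinucleotides for Ddit4l, 26 for Ddit4 and 27 for Akt1s1, against a median of 7 over all windows.

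The comparison asks what knocking down Eva1 changes in glioma-initiating cells. The targeted gene Mpzl2 had 8.20 and 6.21 intensity units on the Eva1 shRNA arrays, against 55.0 and 54.4 on the control arrays, and was 8.72-fold lower (limma, two-sided, adjusted p = 0.00105 over genes). Levels on the log2 scale below are after quantile normalization between arrays, and every log2 change is Eva1 shRNA minus control. Of the 13765 genes tested, 1720 were called higher and 1856 lower at adjusted p under 0.05, 26.0% in all, and 48.1% of the calls were higher. With the authors' scaling alone the share of higher calls was 67.7%, and all genes together had a median change of 0.18 in place of -0.01. The neural stem cell markers Nes, Vim, Pax6 and Msi1 stood above 25 units on all arrays, while Fabp7, Olig2 and Prom1 stood below 25 units. The sum over 7 markers of that list, mostly Vim signal and with Prom1 blank on 1 array, was 20849 to 26682 on the Eva1 shRNA arrays and 16032 to 17118 on the control arrays, with 1 of 6 tested called lower. Nes (435 and 430 units on the Eva1 shRNA arrays, against 532 and 537 on the control arrays) went the other way from that sum. So did Fabp7 (12.3 and 12.2, against 22.1 and 24.6). Sox2 was not analysed here. The astrocyte markers Gfap, Aqp4, Slc1a2 and Slc1a3 and the endothelial markers Pecam1, Cdh5, Tek and Cldn5 were each blank on at least 1 array. The other astrocyte markers, Aldh1l1 and S100b, had 14.1 to 17.7 units on all arrays. The other endothelial markers, Kdr and Vwf, had 5.30 to 16.8 units, and 0 of 2 tested were called in each list. The summed intensity of 6 fibroblast markers was 1149 to 1293 on the Eva1 shRNA arrays, against 825 to 912 on the control arrays, with 2 of 6 called higher and 0 called lower. Most of that signal was Col3a1, and Dcn went the other way, at 55.3 and 15.5 units on the Eva1 shRNA arrays, against 117 and 93.0 on the control arrays. For 5 neuronal markers the sums were 101 to 117 on the Eva1 shRNA arrays and 72.1 to 73.1 on the control arrays, with 1 (Tubb3) called higher. Sums were lower on the Eva1 shRNA arrays for 6 microglial markers (197 to 205, against 258 to 282 on the control arrays) and 4 oligodendrocyte markers (113 to 116, against 146 to 155), with 1 called lower in each list. These were Cd68 (77.3 and 89.3 units on the Eva1 shRNA arrays, against 181 and 148 on the control arrays) and Cnp (45.5 and 51.4, against 91.6 and 85.7). In deposited units, Csf1r and Cx3cr1 (microglial) and Mag (oligodendrocyte) were higher on both Eva1 shRNA arrays than on both control arrays. The part of such cells in the results below was not tested.

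**Figure D1:**
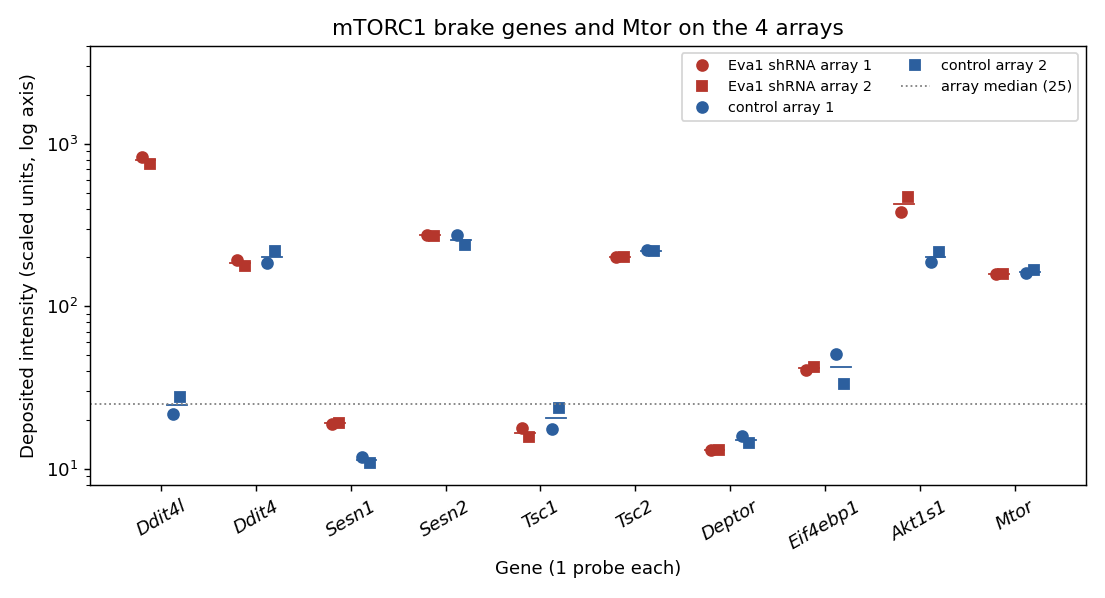
Deposited intensity in scaled units on a log axis for each of the 10 genes on each array, Eva1 shRNA in red and control in blue, with short lines at group means. Ddit4l stands at 748 to 834 units on the Eva1 shRNA arrays, against 21.9 to 27.6 on the control arrays, while for 7 of the other 9 genes the ratio of group means lies between 0.813 and 1.06.

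Ddit4l was near the array median in control cells and bright in Eva1 shRNA cells. Its probe read 834 and 748 units on the Eva1 shRNA arrays, against 21.9 and 27.6 units on the control arrays. The group means were 791 ± 61.1 units in Eva1 shRNA cells and 24.8 ± 4.02 units in control cells (SD, n = 2 each). The groups did not overlap, and the ratio of the means was 31.9. On the normalized log2 scale Ddit4l averaged 9.55 ± 0.07 in Eva1 shRNA cells and 4.72 ± 0.19 in control cells (SD, n = 2 each), a change of 4.83 with a standard error of 0.16, or 28.5-fold. Only 3 of the 13765 genes tested had a larger rise. The nearest arrays of the groups lay 4.65 log2 units apart, while arrays within a group differed by at most 0.26. Leaving out each array in turn gave log2 changes of 4.67 to 4.97. Adding 16 intensity units to each value before taking logs, which shrinks the changes of dim probes, gave 4.18, the lowest of the 11 alternatives tried for this value.

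Ddit4, the better known member of the same pair and a target of hypoxia-inducible factor, did not follow Ddit4l. It read 194 and 178 units on the Eva1 shRNA arrays, against 185 and 218 units on the control arrays. The deposited values of the groups overlapped. After normalization its Eva1 shRNA arrays lay below its control arrays, at 7.45 ± 0.04 in Eva1 shRNA cells and 7.74 ± 0.16 in control cells (SD, n = 2 each), a log2 change of -0.29 (standard error 0.15). The change was -0.11 with the authors' scaling. A larger change in either direction was seen for 58.0% of all genes. Hif1a, which encodes the oxygen-regulated subunit of that factor and was on a separate list of known inducers of the brakes, had 149 and 146 units on the Eva1 shRNA arrays, against 268 and 248 on the control arrays. A link between the levels of Hif1a and Ddit4 was not tested. Hif1a fell by 0.98 on the log2 scale (limma, two-sided, adjusted p = 0.00783). Its call was lost without Eva1 shRNA array 1 (adjusted p = 0.0558) or array 2 (0.0514), in a range of 2.7e-05 to 0.0558 over all alternatives.

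The sestrin genes differed from each other. Sesn1 read 19.0 and 19.1 units on the Eva1 shRNA arrays, against 11.9 and 10.9 on the control arrays, without overlap and below the array median on all arrays. Its log2 change was 0.52 (standard error 0.15), with means of 4.14 ± 0.06 in Eva1 shRNA cells and 3.63 ± 0.16 in control cells (SD, n = 2 each). The change was 0.74 with the authors' scaling and 0.25 with 16 units added. Sesn2, which encodes a leucine sensor, read 275 and 272 units on the Eva1 shRNA arrays, against 275 and 240 on the control arrays. The groups overlapped, and the log2 change of -0.08 (standard error 0.15) turned to 0.09 with the authors' scaling and to 0.03 without control array 1. Sesn3, the remaining sestrin gene and not among the 10, read 82.6 and 83.3 units on the Eva1 shRNA arrays, against 56.7 and 45.0 on the control arrays. Its log2 change of 0.52 did not pass the test (limma, two-sided, adjusted p = 0.0883, range 0.0188 to 0.276 over the alternatives). It passed with 16 units added (0.0222), with the authors' scaling (0.032), with eBayes trend (0.0188) and when the dimmest 25% of probes were dropped (0.0295).

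Tsc1 and Tsc2 were lower on both Eva1 shRNA arrays after normalization, by small amounts. Tsc1 read 17.8 and 15.6 units on the Eva1 shRNA arrays, against 17.6 and 23.6 on the control arrays, an overlap in the deposited values. Its log2 change after normalization was -0.50 (standard error 0.17), and it was -0.29 with the authors' scaling, -0.27 with 16 units added and -0.33 without control array 2. Tsc2, the subunit that acts on Rheb, read 202 on both Eva1 shRNA arrays, against 222 and 218 on the control arrays. Here the groups did not overlap on either scale, and the log2 change was -0.29 (standard error 0.14), or -0.12 with the authors' scaling.

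Of the genes for proteins within the mTOR complexes, Akt1s1 had the larger difference. It read 381 and 471 units on the Eva1 shRNA arrays, against 187 and 216 on the control arrays, a ratio of means of 2.12 without overlap. On the normalized scale Akt1s1 averaged 8.64 ± 0.27 in Eva1 shRNA cells and 7.74 ± 0.13 in control cells (SD, n = 2 each), a log2 change of 0.90 (standard error 0.19), or 1.87-fold. Leaving out an array gave a lowest change of 0.70, when Eva1 shRNA array 2 was omitted, and a highest of 1.09, when Eva1 shRNA array 1 was. Deptor read 13.2 and 13.1 units on the Eva1 shRNA arrays, against 15.9 and 14.3 on the control arrays. Its log2 change was -0.43 (standard error 0.15) without overlap, and -0.20 with the authors' scaling or with 16 units added. Mtor read 159 and 158 units on the Eva1 shRNA arrays, against 160 and 167 on the control arrays. Its arrays within a group differed by at most 0.05 on the log2 scale, and its change was -0.22 (standard error 0.14), or -0.05 with the authors' scaling. The deposited means of Mtor, 158 and 163 units, stood at a ratio of 0.969.

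Eif4ebp1 was the least reproducible of the 10 genes. It read 40.9 and 42.4 units on the Eva1 shRNA arrays, which fell between the 51.0 and 33.4 units of the control arrays. The control arrays differed by 0.64 on the log2 scale, and the log2 change was -0.18 (standard error 0.24). It became 0.01 with the authors' scaling, 0.14 without control array 1 and -0.50 without control array 2, so no direction can be given.

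**Figure D2:**
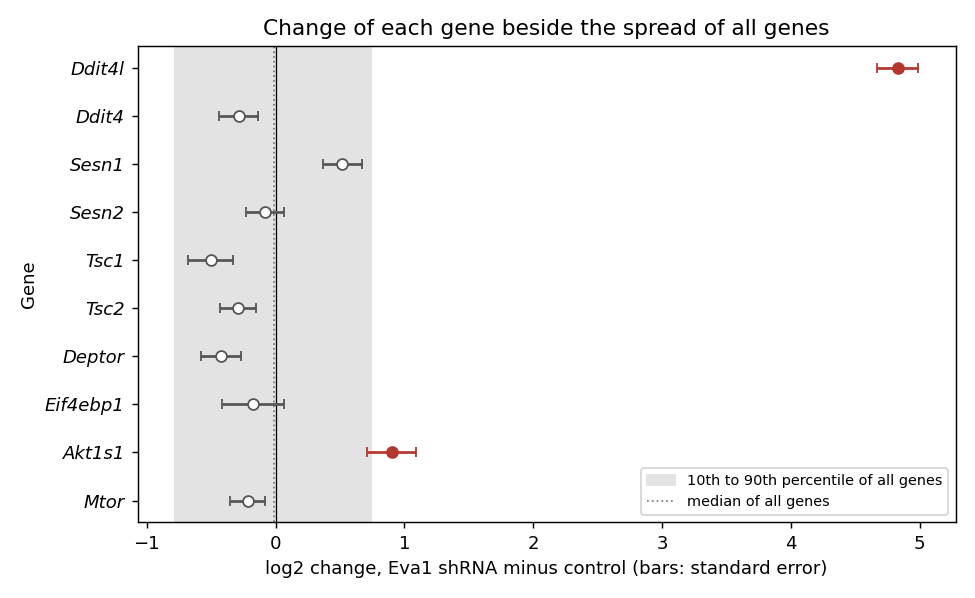
Log2 change (Eva1 shRNA minus control) of each of the 10 genes after quantile normalization, with standard errors as bars; red filled points lie inside the call rule, and the grey band spans the 10th to the 90th percentile of all 13765 genes (-0.78 to 0.74). Ddit4l at 4.83 and Akt1s1 at 0.90 lie outside the band, and the other 8 genes lie within it.

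Among the 10 genes, 2 (Ddit4l and Akt1s1) lay inside the rule of adjusted p under 0.05, both higher, against 26.0% of all genes in either direction and 12.5% higher. Since the set was chosen with this contrast known, nothing is read from that count. After normalization 3 genes had both Eva1 shRNA arrays above both control arrays (32.6% of all genes did) and 5 had them below (34.1%), without overlap for 66.7% of all genes in either direction, and Sesn2 and Eif4ebp1 overlapped. In the values as deposited 3 were above, 3 below and 4 overlapped. The median change of the 10 genes was -0.20, and of the 9 without Ddit4l -0.22, against -0.01 over all genes. Akt1s1 left the rule with blank cells filled, and its call also depended on which array was left out. Ddit4l stayed inside the rule under each alternative. That is no support, since the set was proposed because Ddit4l was high on these arrays. Sesn1 entered it with the authors' scaling, Tsc2 with 16 units added, and Sesn1, Tsc1 and Deptor when the dimmest 25% of probes were left out. The lowest of all their values was 10.9 units, for Sesn1 on control array 2, whereas, for probes with blanks on 1 to 3 arrays, 95% of the remaining values lay below 4.71 units.

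**Figure D3:**
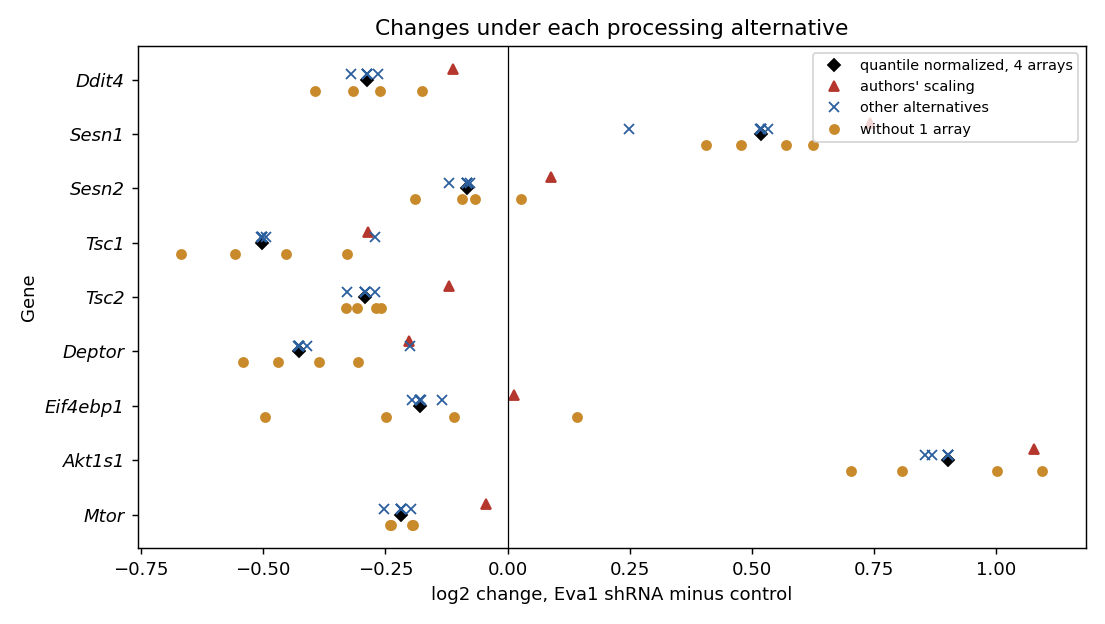
Log2 change (Eva1 shRNA minus control) of the 9 genes other than Ddit4l under each alternative: black diamonds are quantile-normalized values of all 4 arrays, red triangles the authors' scaling, orange circles fits without 1 array and blue crosses the other alternatives. Sesn1 and Akt1s1 stay above 0 throughout, Ddit4, Tsc1, Tsc2, Deptor and Mtor stay below 0, and Sesn2 and Eif4ebp1 cross it.

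By Euclidean distance between gene-centred log2 levels over the 4 arrays, the 5 genes most like Ddit4l were Lhx1 (0.383), Stc2 (0.551), Tmem171 (0.556), Trim47 (0.699) and Bgn (0.82). Their log2 changes were 4.92, 4.45, 4.54, 4.23 and 4.05. Lhx1, a homeobox gene, and Stc2, a stanniocalcin, had control levels of 0.48 and 0.70 and of 1.23 and 0.92 on the log2 scale, near the dimmest values of those arrays, whereas Ddit4l had 4.59 and 4.85. The 5 nearest to Ddit4 were Eci3 (0.015), Gtf2b (0.033), Cox14 (0.043), Cdkl2 (0.044) and N4bp3 (0.045), with log2 changes of -0.25 to -0.31. With 4 arrays in 2 groups, such likeness says only that the genes had differences of like size.

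The other genes of the pathway were grouped by function on 7 lists with 104 genes, none of them among the 10. Of these, 91 had a named probe and 85 were tested. The count was 10 higher, 10 lower and 65 not called, 23.5% called beside 26.0% of all genes, and the median change was 0.02 beside -0.01. The call count was 7 when either Eva1 shRNA array was left out, 9 without control array 1 and 15 without control array 2. The calls of Prr5l, Castor1, Slc38a9, Pik3cd, Irs2, Prkag2 and Eef2k were kept under each of the 13 alternatives. Adjusted p-values in the next paragraphs are from limma, two-sided, over all 13765 genes.

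**Figure D4:**
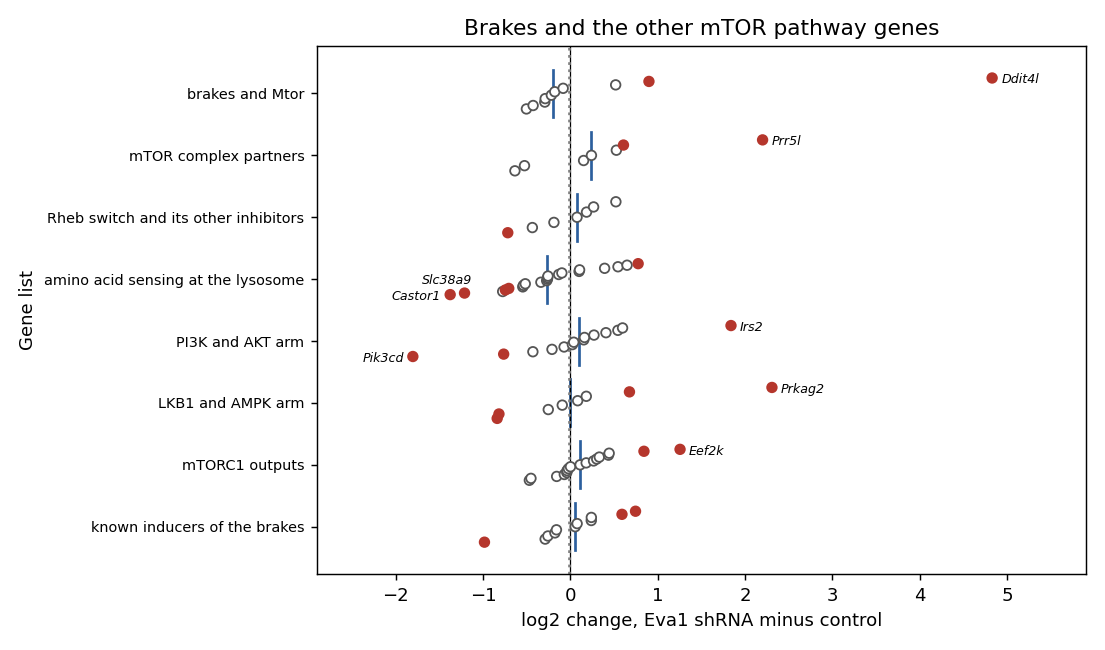
Log2 change (Eva1 shRNA minus control) of the 10 genes and of the 85 tested genes on 7 lists of the mTOR pathway, 1 point a gene, red where adjusted p is under 0.05, with blue lines at list medians and a dotted line at the median of all genes. Ddit4l lies at 4.83, Prkag2 at 2.31 (0.90 with 16 units added, its control signal being dim) and Pik3cd at -1.80.

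Among partners of mTOR in its complexes, 2 of 7 tested genes rose, 0 fell and 5 were not called. That is 28.6% called beside 26.0% of all genes (median 0.24). Prr5l, which encodes a protein that binds the second mTOR complex, had 18.5 and 19.5 units on the Eva1 shRNA arrays, against 3.54 and 3.61 on the control arrays. It rose by 2.20 on the log2 scale (adjusted p = 0.00129), or by 0.76 with 16 units added, since its control signal was dim. Telo2, which encodes a factor for the assembly of mTOR and related kinases, rose by 0.61 (adjusted p = 0.0348), and its call was lost whichever array was left out (adjusted p 0.0871 to 0.18), with the replicate block (0.0586) and with blank cells filled (0.0525). Rptor, whose product defines mTORC1, had a log2 change of -0.63 that did not pass (adjusted p = 0.0935) and was named after its value was seen. On the list of Rheb and genes grouped with it, 1 of 7 tested genes fell, 0 rose and 6 were not called. The share called was 14.3% beside 26.0% of all genes (median 0.08). Nbr1, an autophagy receptor gene, had a log2 change of -0.72 (adjusted p = 0.0227), lost whichever array was left out (0.0662 to 0.126).

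In the amino acid sensing branch, 4 of 21 tested genes fell, 1 rose and 16 were not called. This was 23.8% called beside 26.0% of all genes, and the median was -0.26 beside -0.01. Castor1, which encodes a cytosolic arginine sensor, had 88.6 and 90.0 units on the Eva1 shRNA arrays, against 218 and 193 on the control arrays. It was 2.60-fold lower after normalization (log2 change -1.38, standard error 0.15, adjusted p = 0.00394). Slc38a9, which encodes the lysosomal arginine sensor, had 42.3 and 48.0 units on the Eva1 shRNA arrays, against 91.0 and 91.2 on the control arrays. It was 2.32-fold lower (log2 change -1.21, standard error 0.16, adjusted p = 0.00615). The genes for both arginine sensors were thus lower without overlap between the groups, as were 34.1% of all genes. With each array left out, the log2 change was -1.47 to -1.28 for Castor1 and -1.34 to -1.08 for Slc38a9. Wdr24, a GATOR2 subunit gene, had a log2 change of -0.70 (adjusted p = 0.0205) and Lamtor2, a Ragulator subunit gene, -0.74 (adjusted p = 0.0229). Wdr24 was lost whichever array was left out (0.0578 to 0.117), and Lamtor2 without Eva1 shRNA array 1 (0.129), Eva1 shRNA array 2 (0.081) or control array 1 (0.0858). Lamtor5, another Ragulator subunit gene named after its value was seen, rose by 0.78 (adjusted p = 0.0412). Its call was lost without Eva1 shRNA array 1 (0.16), Eva1 shRNA array 2 (0.139) or control array 1 (0.105) and with blank cells filled (0.1).

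On the PI3K and AKT list 1 of 14 tested genes rose, 2 fell and 11 were not called. Calls made up 21.4% of the list beside 26.0% of all genes (median 0.10). Irs2, which encodes an adaptor of the insulin and IGF receptors, had 518 and 364 units on the Eva1 shRNA arrays, against 110 and 103 on the control arrays. It rose by 1.84 on the log2 scale, or 3.58-fold (standard error 0.19, adjusted p = 0.00374). Pik3cd, which encodes a catalytic subunit of PI3K, had 17.0 and 15.1 units on the Eva1 shRNA arrays, against 48.8 on both control arrays. It was 3.49-fold lower (log2 change -1.80, standard error 0.14, adjusted p = 0.0018), or -1.14 on the log2 scale with 16 units added. Pik3r2, a regulatory subunit gene, had a log2 change of -0.76 (adjusted p = 0.019), lost without Eva1 shRNA array 1 (0.0879), Eva1 shRNA array 2 (0.102) or control array 1 (0.0743).

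On the energy-sensing list of LKB1 and AMPK, 2 of 8 tested genes rose, 2 fell and 4 were not called. Of the tested genes, 50% were called beside 26.0% of all genes (median -0.0040). Calls other than that of Prkag2 did not hold with each array left out. AMPK slows mTORC1 when energy is low. Prkag2, which encodes a nucleotide-binding subunit of AMPK, had 24.1 and 23.9 units on the Eva1 shRNA arrays, against 3.82 and 4.63 on the control arrays. It rose by 2.31 on the log2 scale (standard error 0.14, adjusted p = 0.00116), or by 0.90 with 16 units added. Its control values lay below the 4.71 units given above for partly blank probes, so the size of the change is uncertain. The scaffold subunit genes moved in opposite directions, with Prkab1 at 0.68 (adjusted p = 0.0234) and Prkab2 at -0.82 (adjusted p = 0.0194). Prkab2 was dim on all arrays and its change was -0.31 with 16 units added. Stradb, which encodes a partner of LKB1, had a log2 change of -0.84 (adjusted p = 0.0143). With an array left out, Prkab1 (0.0638 to 0.125) and Prkab2 (0.0547 to 0.109) lost their calls each time, and Stradb lost it without Eva1 shRNA array 1 (0.0632), Eva1 shRNA array 2 (0.0878) or control array 1 (0.062).

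Downstream of mTORC1, 2 of 17 tested genes rose, 0 fell and 15 were not called. Here 11.8% were called beside 26.0% of all genes (median 0.11). Eef2k, which encodes a kinase that slows translation elongation and is held back by the mTORC1 pathway, had 34.6 and 25.7 units on the Eva1 shRNA arrays, against 10.3 and 11.1 on the control arrays. It rose by 1.26 on the log2 scale (standard error 0.17, adjusted p = 0.00705), or by 0.67 with 16 units added. Eif4g1, which encodes the scaffold of the cap-binding complex, rose by 0.84 (adjusted p = 0.0414). Its call was lost without Eva1 shRNA array 1 (0.133), Eva1 shRNA array 2 (0.159) or control array 1 (0.101, log2 change 0.56) and with blank cells filled (0.107). Rps6kb1 at -0.02 and Eif4e at 0.27, which encode the S6 kinase and the cap-binding factor, did not pass (adjusted p = 0.925 and 0.205) and were named after their values were seen.

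Among transcription factors known to induce the brakes, 27.3% were called beside 26.0% of all genes (median 0.06). Of 11 tested genes, 2 rose, 1 fell and 8 were not called. Besides Hif1a, these were Nfe2l2, the antioxidant regulator gene, at 0.75 (adjusted p = 0.0168) and Foxo3 at 0.59 (adjusted p = 0.0448). Nfe2l2 lost its call without Eva1 shRNA array 1 (0.0879), Eva1 shRNA array 2 (0.0924) or control array 1 (0.0671). Foxo3, dim on every array at 6.52 units or less, lost it whichever array was left out (0.0806 to 0.202), with median centring (0.054), with the replicate block (0.0577), with blank cells filled (0.0761), with eBayes trend (0.165) and with 16 units added, where the change was 0.14 (0.294). Atf4, which encodes an inducer of Ddit4 and Sesn2 under stress, had a log2 change of -0.16 (adjusted p = 0.439) and was named after its value was seen.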

How the data were processed

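The deposited table gave 1 intensity per probe and array for 23473 probes, on a linear scale that the authors had scaled to a median near 25, as the values show. Scanner, background correction and the rule for blank cells (6.95% to 12.0% of probes per array) are not stated in the labels or the table. Precision is limited by the number of arrays, which leaves 2 residual degrees of freedom per gene. Of the probes, 16631 had 1 symbol in the platform annotation, 0 several and 6842 none, and 3947 older symbols were replaced by current RefSeq ones (GRCm38.p6).

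The 19199 probes with a value on all 4 arrays were converted to log2 and quantile normalized, the brightest probe of each gene was kept, and groups were compared with limma 3.58.1 in R 4.3.3 (lmFit and eBayes, Benjamini-Hochberg over 13765 genes, threshold 0.05), after tests on simulated data. Titles number the arrays 1 and 2 in each group. The members, lists and tests were chosen with earlier results of these data known. Samtor was matched as Bmt2. Named pathway genes were up to 4 per list with the smallest p among those passing, or the 2 smallest where fewer than 2 passed, and the nearest 5 genes by pattern. Alternatives were other scaling (the authors' own, or median centring), dropping the dimmest 25% of probes, adding 16 units, the array's lowest value in blank cells, the replicate block, eBayes trend or robust, the mean of probes, other thresholds and each array left out. Figures used matplotlib 3.10.9 in Python 3.11.15.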

Additional observations from a re-analysis of the deposited data

How the results depend on the processing

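Over all genes, 3576 calls became 1271 to 2301 with 1 array left out and 1594 when a 2-fold change was also required. Of the 10 genes, 2 were called, 5 without the dimmest 25% of probes, 1 with blank cells filled, 4 at adjusted p under 0.1, 1 at a 2-fold change and 1 to 2 with 1 array left out. Of the other pathway genes, 20 were called, 37 with 16 units added, 36 without the dimmest 25% of probes, 35 with eBayes trend, 35 at adjusted p under 0.1, 7 at a 2-fold change and 7 to 15 with 1 array left out. The cause of these shifts was not tested, except that fewer arrays leave fewer degrees of freedom and the 2-fold rule is stricter by construction. Nothing in the labels says that arrays with the same number belong together, and their deviations correlated at -0.02. The replicate block gave 3102 calls over all genes, 2 among the 10 genes and 19 among the other pathway genes. Foxo3 was not tested without the dimmest 25% of probes. The log2 changes of Prr5l and Prkag2, whose control values were under 4.71 units, were 0.76 and 0.90 with 16 units added in place of 2.20 and 2.31.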
